A study of Rattus norvegicus with 3 samples.

Results

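The cells described here are the Coch-high cells of the rat cochlea at postnatal day 14 (P14). Coch encodes cochlin, a secreted protein of the inner ear matrix. The members were chosen by a measured value, the Coch level of each cell. A P14 barcode was taken where it held more than 500 and fewer than 5000 genes, had under 25% of its unique molecular identifiers (UMIs, which count captured RNA molecules) on mitochondrial genes, and had at least 80 Coch UMIs per 10000 UMIs. This gave 1243 of the 5281 P14 cells kept by the filter (23.5%, 22.4 to 24.7), out of 30641 kept cells in the whole series. Untreated Sprague-Dawley rats were studied at days 1, 7 and 14 after birth, with 40 animals pooled for each stage, and every stage gave 1 library made with 10x Genomics 3′ chemistry. The labels give the tissue as cochlea and name the cells greater epithelial ridge cells, while the study's methods describe dissociated basal membrane from which the spiral ligament, stria vascularis and spiral ganglion had been dissected away. The epithelial markers Epcam and Krt8 stood at 2.68 and 1.34 counts per 1000000 UMIs (CPM) in the Coch-high cells, so these general epithelial markers were nearly absent from them. Col9a1, Col2a1, Otor, Igfbp4 and Serpinf1, which the study used among its characteristic genes for the ridge, were present, at 2284, 1084, 1265, 1446 and 185 CPM. Gpc3, also among those genes, stood lower, at 87.6 CPM. Dbi, Emcn, Ccn3 and Mme of the same set are not given here, so these values cover only part of it. With 1 library per stage and animals pooled, no difference could be tested, and the effects of stage and of library cannot be told apart.

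Cochlear fibrocytes are mesenchymal cells of the spiral ligament and limbus that lie beside the fluid spaces of the inner ear. They make the matrix that anchors the basilar membrane, and through connexin gap junctions they are part of the route by which potassium returns to the endolymph. Cochlin is a major protein of this matrix, and changes in human COCH cause a dominant disorder of hearing and balance. The classic fibrocyte types differ in ion transporters, in carbonic anhydrase and S100 staining, and in their place along the ligament.

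The Coch-high cells had a median of 1510 UMIs and 825 genes, against 1659.5 UMIs and 884 genes in the other 4038 P14 cells. A median of 3.18% of their UMIs were mitochondrial, against 4.0% in the other cells. They held 19.2% of the P14 UMIs and 89.3% of the P14 Coch UMIs. Coch made up 2.67% of all their UMIs, which is 26718 CPM of summed counts, against 763 CPM in the other cells. A member carried from 7 to 283 Coch UMIs, with a median of 37, and 21 members had fewer than 10. The lowest member stood at 80.10 per 10000 and the highest cell outside at 79.74, with 57 cells between 80 and 90 and 60 cells between 70 and 80, so the limit did not fall in a gap. Dmp1 was found in 59.6% of the cells just inside and 76.7% of those just outside. Coch UMIs were also found in cells that should not make it. After every cell was thinned to 1000 UMIs, 21.8% (16.1 to 28.4) of the cells of a B cell-like cluster had a Coch UMI. Thinning left out shallower cells, 112 of the members and 65 of the 253 B cell-like cells, whose median was 1764 UMIs. Of the members, 4 shared a barcode with a kept P1 cell and 6 with a kept P7 cell. The ranges given after values are exact 95% limits (Poisson limits for summed counts, Clopper-Pearson limits for cell shares) and describe counting error alone.

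**Figure D1:**
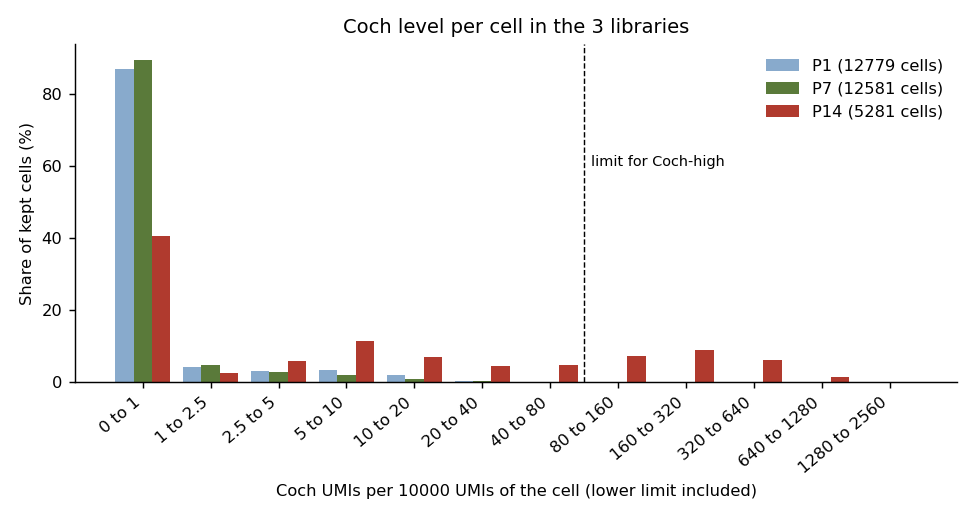
Share of kept cells (percent, vertical axis) in each range of Coch UMIs per 10000 UMIs of the cell (horizontal axis) for P1, P7 and P14, with the limit of 80 as a dashed line. The P14 library has 1243 cells to the right of the line, P7 has 3 and P1 has 0.

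The same rule applied to the earlier libraries found 0 of 12779 kept cells at P1, which allows a share of up to 0.0235%, and 3 of 12581 at P7 (0.0238%, 0.00492 to 0.0697). The highest cell reached 74.3 Coch UMIs per 10000 at P1 and 119.6 at P7, against 1507 at P14. Cells of the earlier libraries were deeper, with a median of 6565 and 6878 UMIs against 1614 at P14. After thinning to 1000 UMIs the rule found 2 of 12742 cells at P1, 4 of 12388 at P7 and 1147 of 4546 at P14 (25.2%, 24.0 to 26.5). Over all kept cells Coch stood at 77.4 CPM (75.7 to 79.2) at P1, 59.99 CPM (58.4 to 61.6) at P7 and 5753 CPM (5709.7 to 5797) at P14.

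Beside Coch, the genes that set the Coch-high cells apart most included genes of cartilage-type collagen, of mineralised matrix and of protease control. Levels were compared as CPM of summed UMIs, and a gene was called higher or lower at a log2 ratio of 1 or more, or -1 or less, with 10 CPM added to both sides. Over the 8586 genes with at least 10 CPM, Coch apart, 282 (3.28%) were higher and 636 (7.41%) were lower, and the median log2 ratio was -0.10. These shares are the background for every list that follows. The other cells are a mixture of endothelial, glial, blood and stromal cells. Since the same cells and the same contrast chose the members, all of these ratios are descriptions.

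Of the 4 genes used to mark these cells, Dmp1 and Col11a2 were called along with Coch, and Lepr was not. Dmp1, an acidic phosphoprotein of bone and dentin matrix, stood at 1335 CPM (1288 to 1384) against 182 CPM (174 to 191) and was found in 70.2% of Coch-high cells and 14.7% of the others. After thinning, these shares were 59.2% and 10.7%, against 2.66% in the B cell-like cluster. Col11a2, a chain of the type XI collagen fibril, stood at 595 CPM against 145, a log2 ratio of 1.96. Lepr, the leptin receptor, stood at 273 CPM (251 to 295) against 139 CPM (132 to 147), a log2 ratio of 0.92. Its direction turned, to -0.18, when the other cells were limited to the 249 with fewer than 2 UMIs of blood, endothelial, neuron or glia markers. Thinned, Lepr was found in 22.4% of Coch-high cells and in 31.5% (28.4 to 34.8) of the P14 cells rich in connexins and low in Coch, which are described further on. Of 15 measured genes of the leptin receptor and gp130 list, Il11ra1, an interleukin receptor chain, was higher and 0 were lower.

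The largest ratio was that of Col2a1, the type II collagen of cartilage, at 1084 CPM (1042 to 1128) against 98.5 CPM (92.2 to 105), a log2 ratio of 3.33. Col9a1, a chain of the type IX collagen that coats those fibrils, stood at 2284 CPM against 253 and was found in 74.4% of Coch-high cells and 17.6% of the others. Col9a2 stood at 487 CPM against 61.2 and Col11a1 at 1782 CPM against 385. All 6 measured genes of the cartilage-type collagen list were higher, with a median log2 ratio of 2.74 beside -0.10 over all genes. Acan, which encodes the cartilage proteoglycan aggrecan, stood at 34.0 CPM against 2.66 but was under the minimum level and so was not counted, while Matn1 and Hapln1 had 2 UMIs each in the Coch-high cells. Against those 249 limited cells, Col11a1 and Col11a2 were no longer called, with log2 ratios of 0.66 and 0.56.

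Phex, a membrane peptidase of bone that limits phosphate loss, stood at 299.8 CPM (278 to 323) against 41.7 CPM (37.7 to 46.0), a log2 ratio of 2.58. Sox9, a transcription factor of otic and cartilage cells, stood at 680.0 CPM against 111 and was found in 57.9% and 14.5% of cells. Apod, a secreted lipocalin, stood at 25887 CPM against 4650.0 and was found in 95.3% of Coch-high cells. Its thinned share was 92.4% in Coch-high cells and 30.3% in the B cell-like cluster, so Apod UMIs were also found in cells of another kind. Serpine2, an inhibitor of secreted serine proteases, stood at 4849 CPM against 1015 and was found in 97.6% and 48.1% of cells. Gsta1, a glutathione transferase, stood at 1608 CPM against 318. Efemp1, a fibulin of the extracellular matrix, stood at 1073 CPM against 218, and C7, a component of the complement membrane attack complex, at 214 CPM against 36.7. The remaining genes of the leading 20, taken among genes found in at least 25% of Coch-high cells, were LOC100911545, Rarres1, Cpz, Fam180a, Kazald1, Map2k6, Gria4 and Pid1, with log2 ratios from 2.13 (Pid1) to 2.65 (LOC100911545). Without barcodes with 2 or more UMIs of other cell types, which left 116 Coch-high cells, Map2k6 and Col11a1 were no longer called, at 0.78 and 0.90.

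**Figure D2:**
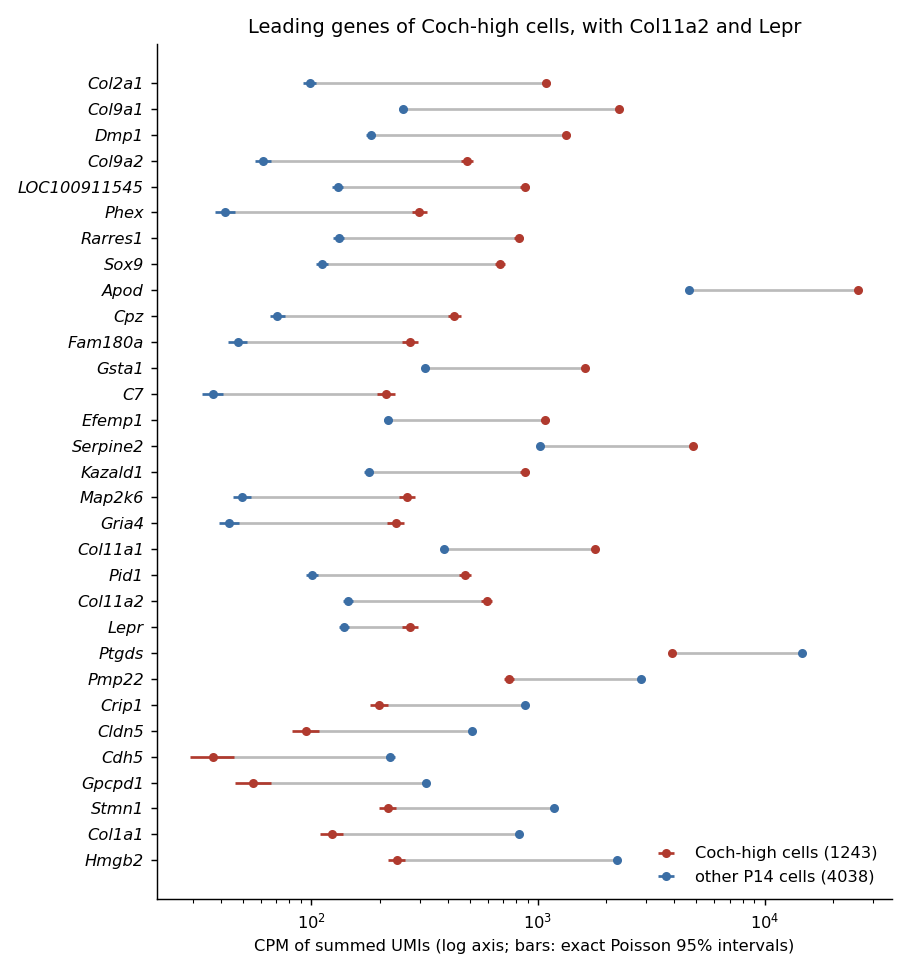
CPM of summed UMIs (horizontal log axis) in the Coch-high cells and in the other P14 cells for the 20 leading genes, Col11a2, Lepr and 9 of the 10 lowest genes, with exact Poisson 95% intervals as bars. Col2a1 has the largest ratio upward (1084 against 98.5 CPM) and Hmgb2 the largest downward (238 against 2223 CPM).

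The promoters of Coch, Dmp1, Apod, Ibsp and Otor are shown because they are the start regions of genes on which the description turns, Ibsp and Otor as genes carried by subsets of the Coch-high cells. They were taken from RefSeq (build GRCr8) and run from 250 bases before the start of the gene to 50 bases after it, 5′ to 3′ on the strand of the gene. Capitals mark matches on either strand to ACAAAG, a core read by SOX factors, to TGTGGT, a core read by RUNX factors, or to TATAAA, the TATA box. Where matches overlap, each is counted.
Coch: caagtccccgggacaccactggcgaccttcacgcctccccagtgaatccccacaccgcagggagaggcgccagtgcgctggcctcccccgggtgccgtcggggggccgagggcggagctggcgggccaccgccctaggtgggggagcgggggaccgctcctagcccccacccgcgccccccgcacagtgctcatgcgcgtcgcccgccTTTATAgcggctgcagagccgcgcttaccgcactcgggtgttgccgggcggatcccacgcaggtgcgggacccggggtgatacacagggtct
Dmp1: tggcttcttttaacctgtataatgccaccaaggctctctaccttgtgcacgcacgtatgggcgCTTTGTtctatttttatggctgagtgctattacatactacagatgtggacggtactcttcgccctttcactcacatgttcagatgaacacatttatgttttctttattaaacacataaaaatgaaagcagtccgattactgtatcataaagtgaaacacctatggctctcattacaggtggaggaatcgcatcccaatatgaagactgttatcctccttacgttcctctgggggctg
Ibsp: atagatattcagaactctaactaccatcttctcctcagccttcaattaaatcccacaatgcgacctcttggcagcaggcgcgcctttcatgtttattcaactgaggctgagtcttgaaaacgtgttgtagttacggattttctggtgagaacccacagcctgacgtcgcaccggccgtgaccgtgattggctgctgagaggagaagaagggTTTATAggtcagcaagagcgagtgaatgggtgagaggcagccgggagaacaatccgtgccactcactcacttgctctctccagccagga
Apod: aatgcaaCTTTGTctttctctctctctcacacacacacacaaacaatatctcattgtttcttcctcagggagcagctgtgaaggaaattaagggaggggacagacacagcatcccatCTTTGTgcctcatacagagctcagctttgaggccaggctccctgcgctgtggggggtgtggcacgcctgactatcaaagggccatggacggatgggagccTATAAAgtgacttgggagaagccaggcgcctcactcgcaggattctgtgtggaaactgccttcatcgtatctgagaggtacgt
Otor: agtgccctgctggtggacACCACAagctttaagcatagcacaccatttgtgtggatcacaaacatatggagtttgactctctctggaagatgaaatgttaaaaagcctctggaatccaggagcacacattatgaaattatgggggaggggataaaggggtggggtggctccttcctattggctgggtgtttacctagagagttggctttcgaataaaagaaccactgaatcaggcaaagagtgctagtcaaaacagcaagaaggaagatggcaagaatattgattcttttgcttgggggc
These windows lie at chr6:74766297-74766596 (plus strand) for Coch, chr14:5840035-5840334 (minus strand) for Dmp1, chr14:5757193-5757492 (minus strand) for Ibsp, chr11:82935970-82936269 (plus strand) for Apod and chr3:150868636-150868935 (plus strand) for Otor. Counted from the start of the gene, Coch and Ibsp hold the TATA letters on the reverse strand at positions -42 and -39, and Apod holds them on the forward strand at -33. The Dmp1 window has 1 SOX match at -187, the Apod window has 2, at -243 and -133, and the Otor window has 1 RUNX match at -232. Of 27 genes looked up, 21 had a promoter entry, and 5 of these had a SOX match, 2 a RUNX match and 6 a TATA match. Over all 33469 promoters of this length the shares were 18.8%, 17.3% and 14.2%. A match is a run of letters and was not shown to be a bound site.

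Dmp1 belongs to a family of acidic, calcium-binding matrix proteins whose genes stand side by side. In the RefSeq gene order the neighbours of Dmp1 are Spp1, Mepe and Ibsp on one side and Dspp and Sparcl1 on the other. Spp1, osteopontin, stood at 2187 CPM (2127 to 2249.6) against 942 CPM (922 to 962), and Ibsp, bone sialoprotein, at 2256 CPM against 589.8. Sparcl1, a relative of osteonectin, stood at 3262 CPM against 1329, so all 3 were higher in the summed Coch-high cells. Ibsp, however, was carried by 144 cells of an osteoblast-like cluster described further on, and in the rest of the Coch-high cells it stood at 212 CPM. The 589.8 CPM of the other P14 cells includes cells of that same cluster, which also carried Ibsp. These values are therefore not like for like. Mepe had 2 UMIs in the Coch-high cells, and Dspp was not analysed here. The genes around this group were not called, with log2 ratios of 0.71 for Pkd2, -0.02 for Nudt9 and -0.10 for Hsd17b11. Of the 18 measured genes of mineral and bone, 8 were higher and 2 were lower, with 5 to 8 higher over the alternative settings. The higher ones included Tnfrsf11b, osteoprotegerin, a decoy receptor that restrains bone resorption, at 779 CPM against 174, and Sfrp4, a secreted Wnt antagonist, at 226 CPM against 48.5. The lower ones were Bglap, osteocalcin, at 638 CPM against 1599, and Alpl, the alkaline phosphatase of mineralising cells, at 17.4 CPM against 68.3. Sost and Fgf23, hormones of osteocytes, had 0 UMIs in the Coch-high cells, where 3 counts would be 1.34 CPM.

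Markers of cochlear fibrocytes other than Coch were mostly higher. Of 10 genes, 6 were higher (Otor, Pou3f4, Tbx18, Cemip, Otos and Gjb2), 1 was lower and 3 lay between. Otor, otoraplin, a small secreted protein of the inner ear, stood at 1265 CPM (1219 to 1313) against 202 CPM (193 to 211), but was found in only 14.4% of Coch-high cells. Otos, otospiralin, a fibrocyte protein needed for hearing, stood at 2978 CPM against 1327. Thinned, Otos was found in 22.8% (20.4 to 25.4) of Coch-high cells against 11.7% (7.48 to 17.2) of the B cell-like cells. Otos was also a leading gene of a marginal cell-like cluster of 87 P14 cells, of which 5 were Coch-high. Slc12a2, the sodium, potassium and chloride cotransporter that marks some fibrocyte types, was lower, at 99.2 CPM against 362. Car3, carbonic anhydrase 3, stood at 54.5 CPM against 71.1, and Aqp1, a water channel of another fibrocyte type, at 64.8 CPM against 34.9. S100b, a calcium-binding protein used to stain both glia and fibrocytes, stood at 1946 CPM against 589, while the other 7 genes of the Schwann cell and glia list were lower.

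Transcription factors of the otic mesenchyme were higher in 11 of 24 measured (6 to 12 over the alternative settings) and lower in 1. The higher ones included Sox9, Scx, Pou3f4, Tbx18, Twist1, Runx2, Twist2, Foxc1, Six4 and Runx1. Pou3f4, whose loss causes X-linked deafness, stood at 216 CPM against 51.4, and Tbx18, a T-box factor of otic fibrocytes, at 562 CPM against 186. Scx, scleraxis, a factor of tendon and ligament cells, stood at 85.3 CPM against 13.1. Osr1 was the lower one, at 12.1 CPM against 54.5.

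Ion transport genes as a list had a median log2 ratio of -0.13, close to that of all genes. Of 29 measured, 3 were higher and 5 were lower. Slc4a11, a transporter also known from the corneal endothelium, stood at 297 CPM (275 to 320.1) against 25 CPM. Car14, a carbonic anhydrase, stood at 85.8 CPM against 32.3. The sodium pump chain Atp1b1 was not called, at 123 CPM against 126. Of 6 measured connexins, Gjb2, which encodes connexin 26, was just past the limit at 1253 CPM against 621, a log2 ratio of 1.00, and the connexin list had 0 higher genes in 9 of 15 alternative settings. Gjb6, which encodes connexin 30, stood at 517 CPM against 360.3 and was not called, and Gja1 and Gjb1 were lower.

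Genes of the wider matrix and of growth factors were mixed. Of 22 measured proteases and inhibitors, 8 were higher and 0 lower, among them Mmp2, a gelatinase, at 756 CPM against 183, and Cst3, cystatin C, at 13927 CPM against 4742. Of 7 small leucine-rich proteoglycans, Dcn, Lum, Ogn and Chad were higher and Epyc was lower, but 1 was higher at a Coch limit of 160, under both filters on UMIs of other cell types, after thinning and against the 249 limited cells. Of 23 matrix glycoproteins, 9 were higher and 3 lower, and of 21 other collagens 4 were higher and 3 lower. In the insulin-like growth factor list Igf2, Igfbp2, Igfbp4 and Igfbp5 were higher and Igfbp3 was lower among 13 measured, with Igfbp2 at 1844 CPM against 534. Slco1c1, a carrier of thyroid hormone and other anions, stood at 1312 CPM against 337 and was the 1 higher gene of 15 that handle thyroid hormone and retinoids, of which 1, Aldh1a2, was lower. Of 39 measured genes of hereditary deafness other than Coch, 10 were higher, including the 6 cartilage-type collagens, Pou3f4, Ednrb and Gjb2, and 5 were lower. Of 18 genes of CCN and TGF-beta signalling 5 were higher and 0 lower, and of 18 Wnt antagonists and targets 5 were higher and 1 was lower.

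Among genes found in at least 25% of the other cells the lowest ratio was that of Hmgb2, a chromatin protein of dividing cells, at 238 CPM (218 to 259) against 2223 CPM, a log2 ratio of -3.17, which was -0.26 against the 249 limited cells. All 10 proliferation genes were lower than in the full set of other cells, from -1.46 for Nusap1 to -3.10 for Top2a. Col1a1, the main chain of type I collagen, stood at 123 CPM (109 to 138) against 821 CPM, while Col1a2, its partner chain, stood at 95.2 CPM against 29.8, in the other direction. All 7 measured endothelial markers were lower, as was the myelin gene Pmp22, but Cdh5, Cldn5 and Pmp22 turned to log2 ratios of 0.11, 2.37 and 2.82 against the limited cells, which had been chosen to hold little such RNA. Summed, the endothelial markers stood at 237 CPM in the Coch-high cells and 1358 CPM in the other cells, and the Schwann cell and glia markers at 4276 CPM in the Coch-high cells and 10891 CPM in the other cells. Ribosomal protein genes took up 7.69% of the UMIs of Coch-high cells and 13.2% of those of the other cells, with 13 of 82 lower and 0 higher. Of 21 immediate early and heat shock genes, Fos, Fosb and Egr1 were higher and 0 were lower.

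To see how far other genes group these cells, the 5281 P14 cells were clustered with Coch left out of the matrix. Of 16 clusters, 3 were mostly Coch-high and together held 1100 (88.5%) of the Coch-high cells. Cluster 0 held 1082 cells, of which 736 (68.0%, 65.2 to 70.8) were Coch-high, and was led by Myoc, LOC100911545, Ramp3 and Slc4a11. Cluster 5 held 274 cells, of which 220 (80.3%, 75.1 to 84.8) were Coch-high, and was led by Col2a1, Otor and Cthrc1. The osteoblast-like cluster 4 held 283 cells, of which 144 (50.9%, 44.9 to 56.8) were Coch-high, and was led by Bglap, Ibsp and Wif1. The remaining 143 Coch-high cells were spread over other clusters and had a median of 2011 UMIs. Of these, 25 lay in the endothelial-like cluster 2, 25 in the neutrophil-like cluster 3 and 17 in the Schwann-like cluster 7. Cluster 6, led by Tnfaip6 and Ccn3, held 32, and cluster 1, led by Fmo1 and Mmd2, held 21. Cluster 8, led by Ptgds and Slc22a2, held 0 Coch-high cells among 470, which allows up to 0.638%, and cluster 9, led by Top2a and Cenpf, held 0 among 162, which allows up to 1.85%.

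**Figure D3:**
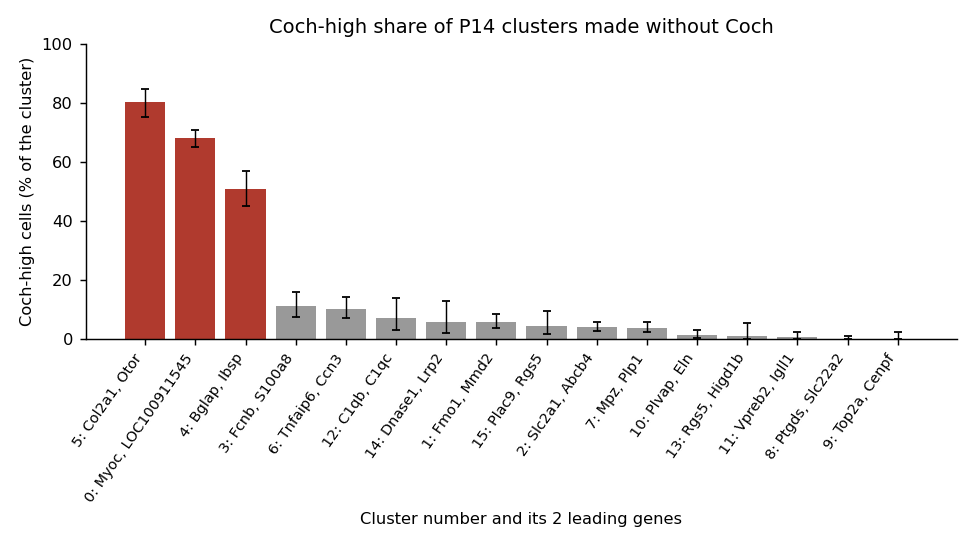
Share of Coch-high cells (percent, vertical axis) in each of the 16 P14 clusters made without Coch, named by number and 2 leading genes, with exact 95% binomial intervals. Clusters 5, 0 and 4 stand at 80.3%, 68.0% and 50.9%.

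Coch stood at 25787 CPM in the Coch-high cells of cluster 0, and at 28536 and 37033 CPM in those of clusters 4 and 5, but the genes beside it differed. The clusters were made from these genes, so the differences between them are descriptions. Coch-high cells of cluster 4 carried Ibsp at 14494 CPM (14080.5 to 14917) against 212 CPM in the rest of the Coch-high cells, and Bglap at 3649 CPM against 135. Of the 3 sets they also carried the most Tnfrsf11b, at 2073 CPM, and the most Dmp1, at 2213 CPM. Coch-high cells of cluster 5 carried Col2a1 at 3667 CPM against 529 in the rest, Otor at 3839 CPM against 712 and Col11a2 at 1648 CPM against 368. In those of cluster 0, Gjb2 stood at 1916 CPM against 602, Dcn, decorin, at 7096 CPM against 2399 and Myoc, myocilin, at 667 CPM against 83.2. The leptin receptor did not mark 1 set alone, with Lepr at 320.3, 381 and 98.4 CPM in clusters 0, 4 and 5.

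Within each of these clusters the cells that were not Coch-high carried more Col1a1. In cluster 4 they stood at 8476 CPM against 90.5 in the Coch-high cells. Bglap there was at 36291 CPM against 3649 and Alpl at 726 CPM against 78.0, while Ibsp was at 12105 CPM against 14494. In cluster 0 Col1a1 stood at 552 CPM against 94.7, and in cluster 5 at 1518 CPM against 106. Over all genes measured, 49 (0.571%) were higher and 44 (0.512%) were lower in the Coch-high cells of cluster 0 than in its other cells. The leading ones were S100b, at 2025 CPM (1942 to 2110.2) against 554 CPM (491 to 622), Tnfrsf11b at 436 CPM against 141 and Aspa, an enzyme that breaks down acetylaspartate, at 406 CPM against 153. The more abundant of the 2 Hba-a2 globin entries was lower there, at 1401 CPM against 6564. That entry also differed between the sets, at 212 CPM in the Coch-high cells of cluster 5 and 3406 CPM in those of cluster 4, and the part of such RNA in these ratios was not tested.

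**Figure D4:**
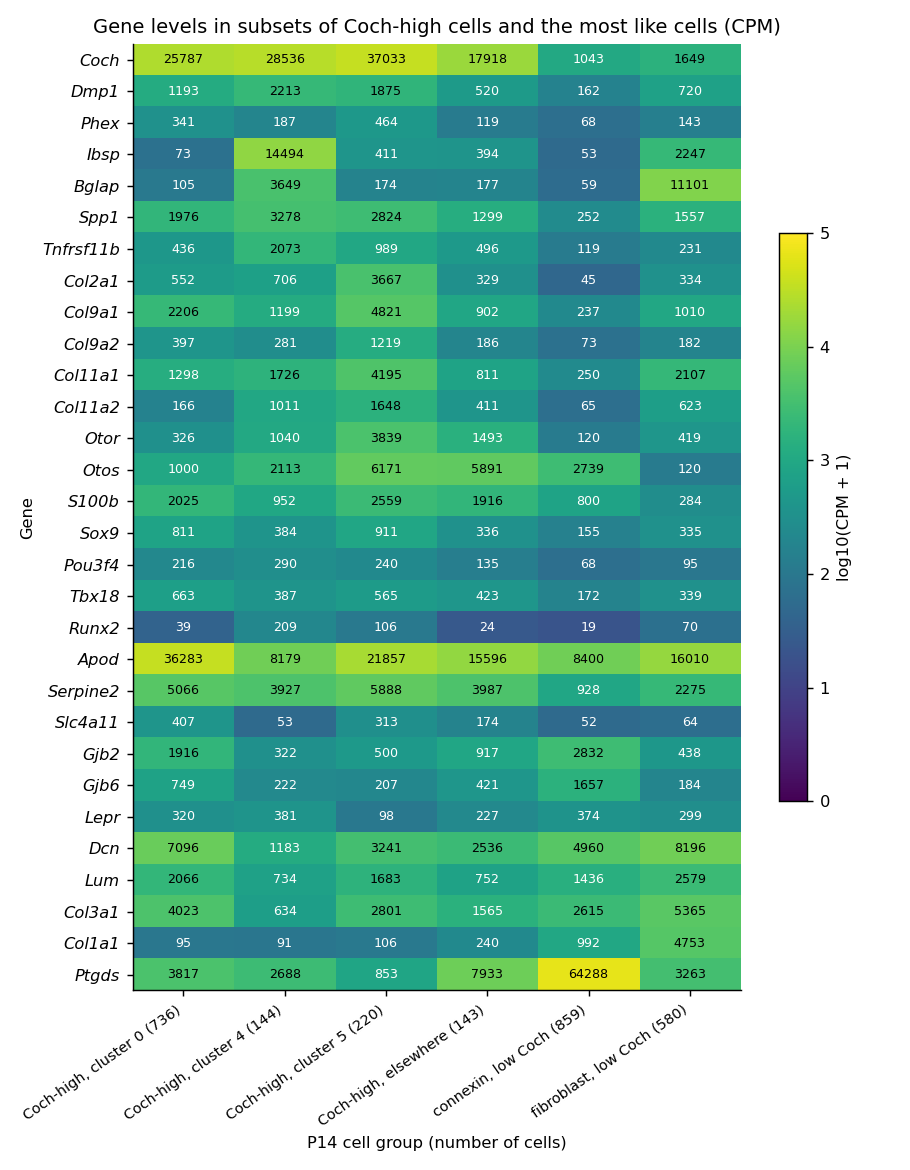
CPM of summed UMIs, printed in each cell of the grid and shaded as log10(CPM + 1), for 30 genes (rows) in 4 sets of Coch-high cells and 2 groups of like cells (columns, with cell numbers). Ibsp stands at 14494 CPM in cluster 4, Col2a1 at 3667 in cluster 5, Gjb2 at 1916 in cluster 0 and Ptgds at 64288 in the connexin cells. Col1a1 stands at 4753 in the fibroblasts, which were chosen by Col1a1, Dcn and Lum, so that level is no result.

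In single Coch-high cells thinned to 1000 UMIs (1131 cells), Dmp1 was found in 75.5% (67.9 to 82.0) of cells with an Ibsp UMI and 56.7% (53.5 to 59.8) of those without. It was found in 49.3% (40.9 to 57.8) of cells with an Otor UMI and 60.7% (57.6 to 63.8) of those without. Otor itself was found in 27.1% (22.3 to 32.4) of cells with Col2a1 and 7.13% (5.45 to 9.11) of those without. The intervals were apart for Ibsp with Dmp1 and for Col2a1 with Otor, and overlapped narrowly for Otor with Dmp1. Among the 12 pairs compared they were also apart, with the lower share beside the other gene, for Dmp1 with Otos, at 50.8% (44.5 to 57.0) with it and 61.7% (58.4 to 65.0) without, and for Otor with Gjb2, at 9.82% (7.60 to 12.4) with it and 16.3% (13.2 to 19.8) without. For Gjb2 the shares with Dmp1 were 59.4% (55.4 to 63.3) with it and 59.0% (54.6 to 63.3) without it.

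Along the Coch level itself, 379 cells stood at 80 to under 160 Coch UMIs per 10000, 469 at 160 to under 320 and 395 at 320 or more, with median UMIs of 1538, 1516 and 1495. Between the highest and the lowest of these bands 33 genes (0.384%) were higher and 231 (2.69%) were lower. Here and in the comparisons that follow, leading genes are those with the largest ratio that had a UMI in 25% or more of cells on the higher side. Cpxm1, a carboxypeptidase-like protein, led at 496 CPM (442 to 554) against 142 CPM (116 to 171), followed by Engase at 369 CPM against 134. Over the 3 bands from low to high Coch, Slc4a11 stood at 215, 274 and 424 CPM, Col11a2 at 401, 594 and 825 CPM and Apod at 18667, 25809 and 34546 CPM. Dmp1 stood at 1199, 1430.4 and 1368 CPM, in no such order, and Otos at 3030.0, 1541 and 4869 CPM. Col1a1 stood at 247, 83.9 and 28.5 CPM, and its level in the highest band was near the 32.0 CPM of the B cell-like cluster. Myelin and globin RNA were among the lower genes, with Pmp22 at 974, 837 and 352 CPM and the more abundant Hba-a2 entry at 1268, 2384 and 244 CPM, and their part in the lower counts was not tested.

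Among the P14 cells, 2 groups were set beside the Coch-high cells as most like them. The first held 859 cells with Gjb2 and Gjb6 together at 20 or more per 10000 UMIs and Coch under 80. Against these connexin cells 322 genes (3.75%) were higher and 180 (2.1%) were lower in the Coch-high cells. Col2a1 again led, at 1084 CPM against 44.8, and Tm4sf1, a membrane protein, stood at 1633 CPM against 110.0 and Spp1 at 2187 CPM against 252. On the other side, Ptgds, prostaglandin D synthase, stood at 3891 CPM against 64288. The solute carriers Slc16a11, at 41.6 CPM against 1005, and Slc22a2, at 48.7 CPM against 936, were also lower in the Coch-high cells. Gjb2 and Gjb6 chose that group, so their level there is no result. The second group held 580 cells with Col1a1, Dcn and Lum together at 50 or more per 10000, Coch under 80 and outside the first group. Against it 102 genes (1.19%) were higher and 133 (1.55%) were lower. Col1a1, Dcn and Lum chose this group, so their levels there are no result either. Otos stood at 2978 CPM against 119.9, S100b at 1946 CPM against 284 and Col2a1 at 1084 CPM against 334. The leading gene of rank 10, Cald1, had a log2 ratio of 1.36 there. Col9a1, Col11a1, Dmp1, Phex, Sox9, Apod, Serpine2 and Efemp1 were not among those 10. Their ratios were thus smaller here than against all other P14 cells. Col5a2, a fibril collagen that goes with type I, stood at 87.6 CPM against 479, and Vim, vimentin, at 293 CPM against 978. Dmp1 was at 720.0 CPM in the second group, between its levels in the Coch-high cells (1335 CPM) and in the connexin cells (162 CPM).

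At the earlier stages the cells richest in Coch carried other genes beside it. Cells with 10 or more Coch UMIs per 10000 numbered 297 at P1, 170 at P7 and 2087 at P14, where this level needs only a few UMIs because cells were shallower. They were 2.32%, 1.35% and 39.5% of the kept cells, so the P14 set is much broader. Otor stood at 22107 CPM (21898 to 22316) in these cells at P1 and 18705 CPM (18461 to 18953) at P7, but at 908 CPM at P14 and 1265 CPM in the Coch-high cells. Dmp1 had 0 UMIs at P1, where 3 counts would be 1.54 CPM, and stood at 50.4 CPM (38.4 to 64.8) at P7, against 982 CPM at P14. Over P1, P7 and P14, Lum, a proteoglycan of fibrous matrix, stood at 4.10, 27.7 and 1556 CPM, and Slc4a11 at 1.03, 12.6 and 206 CPM. Tnfrsf11b stood at 3.59, 19.3 and 609 CPM and Lepr at 10.8, 15.9 and 265 CPM. These genes thus stood at their highest in the P14 library. The cartilage-type collagens and S100b did not, with Col9a1 at 4156, 5425 and 1705 CPM, Col2a1 at 1279.9, 1090.4 and 773 CPM and S100b at 3006, 2849.9 and 1665 CPM. Pou3f4 stood at 431, 529 and 175 CPM. The P14 values depend on the cut. In the Coch-high P14 cells Col9a1 stood at 2284 CPM, Col2a1 at 1084 CPM, S100b at 1946 CPM and Pou3f4 at 216 CPM. Col2a1 was there near its P7 level, and the others were still under theirs. Otos stood at 546, 4630.4 and 3513 CPM, highest at P7.

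**Figure D5:**
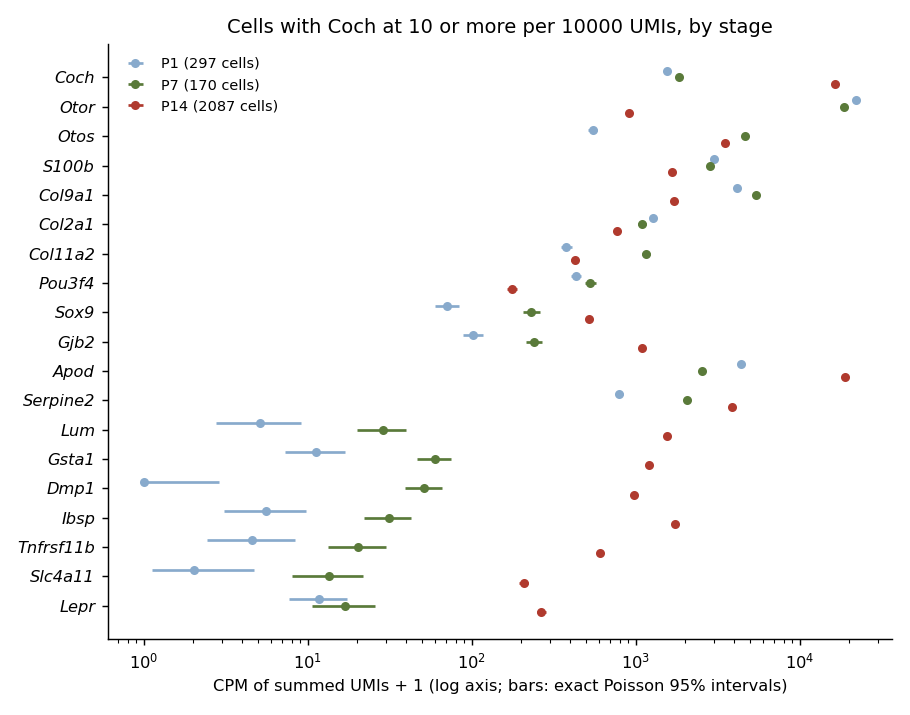
CPM of summed UMIs plus 1 (horizontal log axis) for 19 genes in cells with at least 10 Coch UMIs per 10000 UMIs at P1, P7 and P14, with exact Poisson 95% intervals as bars. Otor lies at 22107 and 18705 CPM in the earlier libraries and 908 CPM at P14, and Dmp1 at 0, 50.4 and 982 CPM.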

How the data were processed

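Single-cell RNA sequencing was performed on cochlear tissue of Sprague-Dawley rats at P1, P7 and P14. Per the study's methods and the matrix headers, the authors used Cell Ranger 3.1.0 (rn6 build) for alignment and counting, and Seurat 3.1.1 for the cells. The files the authors deposited hold UMI counts per gene and barcode, as whole numbers without normalization, for 32623 genes. The 3 matrices held 14068, 14501 and 6358 barcodes, with 114285848, 101264868 and 12616390 UMIs.

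From these counts, cells with more than 500 and fewer than 5000 genes and under 25% mitochondrial UMIs were kept, members were taken at 80 or more Coch UMIs per 10000, and CPM came from counts summed over cells. Ratios had 10 CPM added, genes needed 10 CPM over all kept P14 cells, and 95% intervals were exact. A share of 0 was given the limit of 3 counts. P14 cells were clustered without Coch in scanpy 1.11.5 (2000 variable genes, 10 principal components, 30 neighbours, Leiden resolution 0.8). The number of variable genes, components and resolution followed the study. Clusters were called like a cell type from marker lists. Thinning drew 1000 UMIs per cell (seed 1). No doublet caller was run. Ratios were also computed on simulated Poisson counts with no spread between cells and no RNA from other cells. That check covers the calculation alone. Other steps used Python 3.11.15, numpy 2.4.6, scipy 1.17.1, pandas 2.3.3 and matplotlib 3.10.9.

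Named genes were Coch, Dmp1, Lepr and Col11a2, the 20 genes with the largest log2 ratio among those found in at least 25% of Coch-high cells, the 10 with the lowest among those found in at least 25% of the other cells, and members of 38 gene lists. Genes named within clusters, Coch bands and like groups mostly lead those comparisons (found in at least 25% of cells on the higher side) and were chosen after their values were seen. The members and the lists were chosen with earlier results of these data known. Of 644 list symbols, 626 were in the matrices. Promoter sequences are from RefSeq (GRCr8), and rn6 coordinates were not used here. Some genes are not reported here. Alternatives changed the Coch limit, the cell filters, the scale and the comparison cells.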

Additional observations from a re-analysis of the deposited data

Results flagged for a closer look

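Barcodes of the P14 library with 500 genes or fewer lay outside the filter. Of 1027 such barcodes, 128 (12.5%, 10.5 to 14.6) passed the Coch rule, with a median of 650 UMIs per barcode over all of them. Summed over the 1027 barcodes, Coch stood at 5380 CPM (5217 to 5548), against 26718 CPM in the Coch-high cells and 763 CPM in the other kept cells. Dmp1 stood at 559 CPM in them and Otos at 6369 CPM, while the more abundant Hba-a2 entry was at 31701 CPM. These values are shown as signal outside the data used for the comparisons, and their nature was not tested.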

How the results depend on the processing

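No paired analysis was possible because each stage has 1 library, and no library could be left out. Main values were 1243 Coch-high cells, 282 genes higher and 636 lower. Without barcodes that held 2 or more UMIs of other cell types, 116 Coch-high cells remained, with 471 genes higher and 710 lower. That list holds S100b, Ebf1 and the myelin genes, so a narrower list without glia was added after seeing the data and left 1100 Coch-high cells, 171 genes higher and 323 lower. With 1 CPM added in place of 10, 1095 genes were lower, and with 50 CPM added 127 were higher and 151 lower. Against the 249 other cells with fewer than 2 UMIs of blood, endothelial, neuron or glia markers, 352 genes were higher and 162 lower (68.5% higher among those called, against 30.7%), and the median log2 ratio was 0.01 in place of -0.10. There the ratios of Stmn1 (0.28) and Crip1 (0.90) reversed, and the cause was not tested. Those of Cdh5 (0.11), Cldn5 (2.37) and Pmp22 (2.82) reversed as well. These genes were among the markers that limited the other cells, and the Coch-high cells were not limited, so their reversal follows from that choice. Cldn5 also reversed under the narrower list (0.55), which holds Cldn5 itself. Lepr, not called in the first place, turned to -0.18 against the 249 cells. The count of higher genes ranged over the settings from 2 to 7 for CCN and TGF-beta genes, 3 to 8 for Wnt genes, 4 to 10 for matrix glycoproteins, 2 to 5 for other collagens, 1 to 5 for ion transport, 0 to 2 for the leptin receptor list, 1 to 3 for thyroid hormone and retinoid genes, 1 to 3 for complement and innate immune genes, 1 to 5 for antioxidant genes and 2 to 5 for immediate early and heat shock genes. A Coch limit of 40 gave shares of 0.0391%, 0.0874% and 28.2% at P1, P7 and P14. A limit of 160 gave 0% at P7 and 16.4% at P14. At P14 the share was 24.9% with at least 1000 UMIs and 25.2% after thinning. The share of Coch-high cells in clusters mostly Coch-high, 88.5%, was 84.2% with 20 components and 83.2% without the named genes. Leaving out the Coch-high cells outside those clusters, also added later, left 1100 cells, 320 genes higher and 873 lower. Of 465 ratios of 31 named genes over 15 alternatives, 214 stayed within counting error of the main value. Another 245 moved beyond it, and 6 reversed, not counting Lepr. The sign was kept in 458. Of the 450 ratios from genes past a log2 ratio of 1 in size, 435 stayed past it in the same direction. Most of these genes were chosen for extreme ratios in the same cells, so kept signs were likely from the start. The sizes of the ratios thus depend on the setting more than their signs do. The shallow P14 library limits low genes most, since 1 UMI over all Coch-high cells is 0.447 CPM.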

Other observations

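Some gene groups not described above also differed between the Coch-high and the other P14 cells. Of 30 metallothionein and antioxidant genes, Gsta1, Gpx3 and Sod3 were higher and Mt3 and Gpx1 were lower. Gpx3, a secreted glutathione peroxidase, stood at 324 CPM against 103, and Mt3, a metallothionein of glia, at 224 CPM against 1002. Of 19 complement, chemokine and innate immune genes, C7, Serping1 and Ifitm3 were higher and Lcn2 and Cxcl12 were lower, with Serping1, the inhibitor of complement C1, at 715 CPM against 286. Of 8 genes that respond to glucocorticoids, Tsc22d3 was just past the limit with a log2 ratio of 1.01 and 0 were lower, and that list had 0 higher genes in 7 of 15 alternative settings. Among 9 fibroblast markers, Dpt, Col1a2, Lum and Dcn were higher and Col1a1 was lower.

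Among the marker lists of other cell types given here, those of osteoblasts, B cells and fibroblasts summed to more in the Coch-high cells. The rest summed to less, apart from the hair cell list, which held too few UMIs to compare. The fibroblast list summed to 10454 CPM in the Coch-high cells and 5558 CPM in the other cells. The osteoblast list summed to 5175 CPM in the Coch-high cells and 3231 CPM in the other cells, with 3 of 5 measured genes higher and 2 lower. The macrophage list summed to 88.9 CPM in the Coch-high cells and 370.3 CPM in the other cells, the neutrophil list to 149 CPM in the Coch-high cells and 434 CPM in the other cells and the pericyte and smooth muscle list to 110.4 CPM in the Coch-high cells and 263 CPM in the other cells. The neuron list summed to 35.3 CPM in the Coch-high cells and 140.2 CPM in the other cells, the T and NK cell list to 7.15 CPM in the Coch-high cells and 85.2 CPM in the other cells and the marginal cell list to 13.4 CPM in the Coch-high cells and 108 CPM in the other cells. The melanocyte list summed to 8.49 CPM in the Coch-high cells and 10.1 CPM in the other cells and the cartilage list to 98.3 CPM in the Coch-high cells and 103 CPM in the other cells. The hair cell list had 1 UMI in the Coch-high cells, which is 0.447 CPM, against 0.213 CPM in the other cells. The erythroid list summed to 2119.6 CPM in the Coch-high cells and 4303 CPM in the other cells. The B cell list summed to 761 CPM in the Coch-high cells and 708 CPM in the other cells, of which Ebf1, a factor also made by mesenchymal cells, was 746 CPM in the Coch-high cells, while 4 of its 5 measured genes were lower. Of 3 measured markers of the cochlear epithelium 2 were lower.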
